A study of Rattus norvegicus with 6 samples.

Results

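Mt1, Mt2A, Hmox1, Nqo1, Gclc, Gclm, Slc7a11, Nfe2l2 and Keap1 were followed through the single-cell transcriptomes of 6 rat pancreases. They are 2 metallothionein genes and 7 genes of the Nrf2 pathway, 9 of the 32883 genes in the deposited matrices, and all 9 were found by symbol (identifiers ENSRNOG00000038047, ENSRNOG00000043098, ENSRNOG00000014117, ENSRNOG00000012772, ENSRNOG00000006302, ENSRNOG00000013409, ENSRNOG00000010210, ENSRNOG00000001548 and ENSRNOG00000020878 in that order). They were chosen by name, with earlier results of these data known. The question was which cells of the pancreas hold transcripts of these inducible genes, and whether the level in a given cell class differed with age or with a high-fat high-fructose (HFHF) diet.

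Nrf2, encoded by Nfe2l2, is a transcription factor that Keap1 binds in the cytoplasm and passes to a ubiquitin ligase, so that little of it accumulates in unstressed cells. Oxidants and electrophiles modify cysteines of Keap1, and the Nrf2 that escapes enters the nucleus and binds antioxidant response elements with small Maf proteins. Its best known targets include Nqo1, a quinone reductase, Gclc and Gclm, the catalytic and modifier subunits of the enzyme that limits glutathione synthesis, and Slc7a11, the cystine importer that supplies it with cysteine. Hmox1, the inducible haem oxygenase, is another target, and in macrophages that digest red cells it degrades haem. Metallothioneins are small cysteine-rich proteins that bind zinc and copper, and their genes are switched on by zinc through the factor Mtf1 at metal response elements, and also by glucocorticoids. Islet beta cells are known for a modest content of antioxidant enzymes, whereas acinar cells devote most of their transcription to digestive enzymes.

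The rats were male Wistar animals in 3 groups of 2. Young rats were 2 months old and ate normal chow. Old rats were kept on normal chow to an age of 20 months, that is for 18 months, and HFHF-old rats received the HFHF diet over the same 18 months to the same age. No transgene, deletion or drug was used, each library is the pancreas of 1 rat, and the cells were the fraction recovered after collagenase perfusion and a density gradient made for islets.

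The letters upstream of Mt1 and Mt2A are shown because acinar Mt1 and Mt2A differed widely between rats. Both genes lie on the minus strand of chromosome 19 in the rat RefSeq annotation (assembly GRCr8), and each sequence is the 250 bases before the annotated start, chr19:10832976-10833225 for Mt1 and chr19:10838709-10838958 for Mt2A, read 5′ to 3′ along the gene. Capitals mark the core of the metal response element, TGCACNC or TGCGCNC, on either strand.
Mt1: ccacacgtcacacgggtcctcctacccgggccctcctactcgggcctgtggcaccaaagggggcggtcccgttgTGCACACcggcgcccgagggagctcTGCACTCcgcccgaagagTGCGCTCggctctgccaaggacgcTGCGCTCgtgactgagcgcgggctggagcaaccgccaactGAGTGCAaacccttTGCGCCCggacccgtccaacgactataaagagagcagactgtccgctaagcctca
Mt2A: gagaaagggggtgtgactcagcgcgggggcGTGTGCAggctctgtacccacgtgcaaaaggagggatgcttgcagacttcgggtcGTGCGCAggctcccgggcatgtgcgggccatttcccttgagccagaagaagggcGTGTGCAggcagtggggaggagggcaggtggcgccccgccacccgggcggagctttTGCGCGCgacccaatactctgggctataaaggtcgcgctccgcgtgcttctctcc
The Mt1 window held 6 such cores and the Mt2A window 4. Of all 33469 windows of this length, 20.57% held at least 1 core, 0.27% at least 4 and 0.03% at least 6. The core of the antioxidant response element, TGACNNNGC, occurred 1 time in each of these windows and in 10.08% of all windows. Windows were on hand for 8 of the 9 genes, Hmox1 being the exception. The Gclm window held 2 metal response and 1 antioxidant response core and the Keap1 window 1 metal response core, and neither core was found in the 250 bases of Gclc, Nfe2l2, Nqo1 and Slc7a11. These matches describe letters, and binding was not measured.

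The 6 matrices held 78024 barcodes and 77387928 to 166875258 unique molecular identifiers (UMIs) each, with medians of 2537 to 9391.5 UMIs per cell. After filtering 75201 cells remained, of which 55780 fell into 15 classes named by marker genes. The names stand for macrophage-like, fibroblast-like cells and so on, and the ending is left out below. Levels are UMIs per 1000000 UMIs of a class in a rat (CPM), listed by group from young through old to HFHF-old, replicate 1 before replicate 2 in each, for rats with at least 10 cells of the class. HFHF-old replicate 2 stood apart in its make-up, with 8248 natural killer (NK) cells and 50 macrophages, where the other rats had 393 to 1465 and 1644 to 6223. It had too few ductal, smooth muscle, mesothelial and islet cells for a value. T cells of the young rats held T markers at a summed 1126 and 601.2 CPM, against 2405 to 2735 CPM in the other rats. Macrophages of HFHF-old replicate 2 held macrophage markers at a summed 6933 CPM, against 13250 to 18240 CPM in the other rats. Free RNA from burst cells also reaches every droplet, and acinar enzyme transcripts in T and NK cells stood at 8.869 to 28.64% of their share in the whole library, so low levels were read against the level this would give. This estimate uses the acinar enzyme ratio of a rat for all genes and can be too high. Of 77386 distinct barcode sequences 636 occurred in more than 1 library.

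Each gene had its own distribution over the classes. In CPM, Hmox1 was a macrophage transcript, Mt2A a transcript of fibroblasts, endothelial and mesothelial cells, and Nfe2l2 was highest in ductal cells, macrophages and dendritic cells, whereas Mt1 was spread over most classes. Slc7a11 was low in every named class. When the classes were ordered by mean level, neighbours in the order overlapped in their range over rats in nearly every case. The exception was the step from alpha to beta cells for Gclc and Nfe2l2, so the order gives no finer ranking than high, middle and low.

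**Figure D1:**
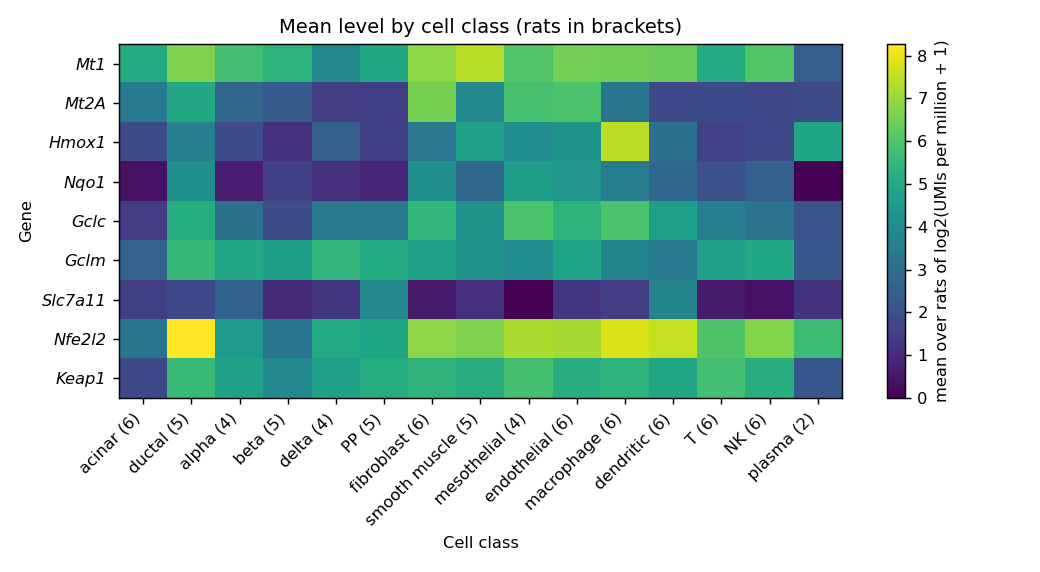
Mean level of the 9 genes in 15 cell classes, as the mean over rats of log2(CPM + 1), with the number of rats with at least 10 cells in brackets. Hmox1 is bright in macrophages and Nfe2l2 in most non-secretory classes, and acinar and beta cells are dark for Nfe2l2, Keap1, Gclc and Nqo1.

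Nfe2l2 itself was most abundant in ductal cells, the lining of the pancreatic ducts. There it stood at 309.8, 315.1, 377.6 and 292.7 CPM in the young and old rats and 258.7 CPM in HFHF-old replicate 1, so that the 3 groups lay close together. Macrophages held 151.4 and 147.3 CPM in young, 302.0 and 241.4 CPM in old and 316.9 and 234.3 CPM in HFHF-old rats. In macrophages both young rats were thus below every older rat. The mix of macrophage clusters differed between rats, but the young rats were also lowest within each, at 140.1 and 153.6 against 211.0 to 263.8 CPM in cluster 1, 136.6 and 123.2 against 204.6 to 249.8 CPM in cluster 2, 180.1 and 206.3 against 237.6 to 348.5 CPM in cluster 8 and 172.3 and 150.8 against 266.6 to 322.5 CPM in cluster 9. Dendritic cells held 170.1 and 95.17 CPM in young, 258.9 and 258.3 CPM in old and 229.9 and 171.4 CPM in HFHF-old rats, where the highest young and the lowest HFHF-old rat nearly met. Old against young was not called in macrophages (log2 fold change 0.92, SE 0.258, adjusted p = 0.474) or dendritic cells (1.16, SE 0.324, adjusted p = 0.793), by edgeR with n = 2 against 2. The dissociation response genes, which react to the isolation of cells, were also lower in dendritic cells of young rats, at a summed 3150 and 1287 CPM against 3847 to 9091 CPM in the older rats, and their part was not tested. Fibroblasts ranged only from 92.36 to 137.5 CPM and endothelial cells from 110.4 to 179.6 CPM. Beta and acinar cells lay at or below 14.92 CPM in every rat, the lowest of the classes, although digestive enzyme and hormone transcripts take up most of the UMIs there. With the 20 most abundant genes of each class left out the means were 39.30 CPM in beta and 41.87 CPM in acinar cells, against 41.78 CPM in alpha cells and 363.2 CPM in ductal cells.

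Keap1, the repressor, was more even. T cells held 44.97, 46.67, 69.31, 58.78, 64.45 and 51.68 CPM, and the mean over rats was 55.98 CPM in T cells, 47.89 CPM in ductal cells, 40.41 CPM in fibroblasts and 39.93 CPM in macrophages. Beta cells averaged 14.73 CPM, plasma cells 11.11 CPM and acinar cells 2.997 CPM, the lowest 3 of the classes. Outside the 20 most abundant genes the beta mean was 65.66 CPM, next to the highest class, while acinar cells stayed lowest at 13.67 CPM. No Keap1 test was called, and the log2 fold changes lay between -0.30 and 0.59 over all classes and comparisons.

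Between groups, Nfe2l2 in T cells gave one of the smaller adjusted p-values among the 9 genes. It stood at 49.71 and 45.22 CPM in young, 49.24 and 53.70 CPM in old and 112.0 and 93.15 CPM in HFHF-old rats, both of the last above the other 4. The log2 fold change was 1.06 (SE 0.193, n = 2 against 2; adjusted p = 0.0745, edgeR quasi-likelihood test) for HFHF-old against young and 0.83 (SE 0.191; adjusted p = 0.354) for HFHF-old against old, so neither passed. DESeq2 called HFHF-old against young in T cells (1.08, SE 0.264, adjusted p = 0.00204) and in NK cells (0.89, SE 0.258, adjusted p = 0.0298). NK cells gave 104.6, 68.16, 94.05, 80.21, 169.6 and 159.9 CPM, again with both HFHF-old rats highest (0.88, SE 0.223; adjusted p = 0.279 by edgeR against young). By the estimate from acinar enzymes, free RNA would account for 4.85 to 40.85 CPM of these values. Acinar cells themselves held at most 13.95 CPM of Nfe2l2 in any rat, so the estimate can be too high for this gene. In T cells the level less free RNA was 18.99 and 40.37 CPM in young, 19.56 and 28.20 CPM in old and 71.11 and 57.61 CPM in HFHF-old rats, so that both HFHF-old rats stayed highest while the young and old rats overlapped.

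The clusters behind these T and NK values differed between rats. HFHF-old replicate 2 had 1318 of its 1576 T cells in cluster 18, and the other rats had 72.8 to 97.93% of theirs in cluster 5. Within cluster 5 Nfe2l2 was 43.62 and 45.45 CPM in young, 46.93 and 49.43 CPM in old and 110.4 and 76.80 CPM in HFHF-old rats, which was the order of the whole class. NK cells of HFHF-old replicate 2 lay mostly in clusters 0 (5650 of 8248) and 12 (2255). NK cluster 0 held 111.0, 74.21, 104.2, 92.34, 173.8 and 153.7 CPM and cluster 7 held 85.51, 67.35, 83.82, 67.26, 168.9 and 95.05 CPM, so both HFHF-old rats were highest in each, by little for replicate 2 in cluster 7. The dissociation response genes were also highest there, at a summed 5248 and 5738 CPM in T cells of HFHF-old rats against 1044 to 4171 CPM in the others, and 5320 and 4171 CPM against 1322 to 3594 CPM in NK cells. Their part in the Nfe2l2 values was not tested.

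Hmox1 transcripts lay mostly in macrophages. They held 76.45% of all Hmox1 UMIs summed over the libraries, and per rat a mean of 62.08% (10.34 to 80.21%, n = 6) while making up 21.32% of the cells. Fibroblasts held a mean of 12.83% per rat, but 63.45% in the rat where their share was highest. The level was 296.9, 196.0, 177.8, 208.7 and 292.6 CPM in the rats other than HFHF-old replicate 2, which had 39.05 CPM in its 50 macrophages. Fibroblasts stayed between 3.449 and 16.51 CPM, and T and NK cells at or below 10.13 CPM. After each cell was thinned to 1000 UMIs, 15.85% ± 7.807 (SD, n = 6) of macrophages had a Hmox1 UMI, against 0.3872% of T and 0.4428% of NK cells. Unthinned, these shares were 41.6, 1.945 and 2.387%.

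Macrophages were not uniform in Hmox1. Clusters 9 and 1 held 310.4 to 410.1 CPM and 309.6 to 398.1 CPM in the 5 rats with enough cells. Cluster 2 held 134.1, 95.22, 174.9, 146.7 and 159.5 CPM and cluster 8, 123.1, 51.37, 53.38, 91.23, 109.9 and 27.95 CPM, and neither range overlapped those of clusters 9 and 1. Of the 50 macrophages of HFHF-old replicate 2, 41 were in cluster 8, where this rat's Hmox1 was also the lowest. That rat thus had a different mix of macrophage clusters, and the part of the mix in its low macrophage value was not tested. Clusters 26 and 24, left unnamed because they carried macrophage markers beside those of another cell type, held 42.2 to 238.1 CPM and 93.22 to 173.6 CPM, and 94.57 and 93.11% of their barcodes were marked as likely doublets.

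**Figure D2:**
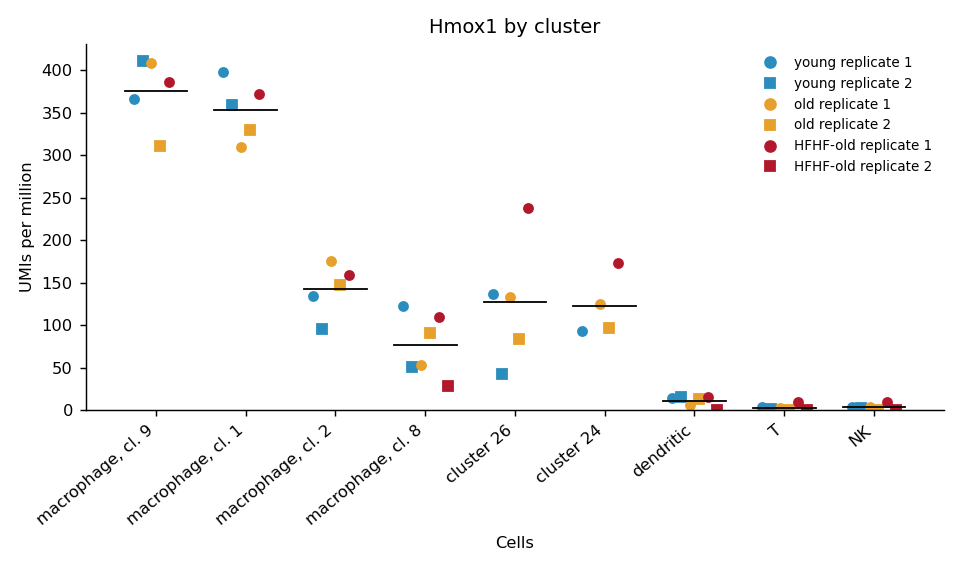
Hmox1 in CPM by cluster and rat. Points are rats, colour is group, shape is replicate and the bar is the mean. Macrophage clusters 9 and 1 lie above 300 in all 5 rats shown, clusters 2 and 8 below 180, and T and NK cells near 0.

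No comparison of groups separated Hmox1 in macrophages. HFHF-old against old gave a log2 fold change of -0.31 (SE 0.774, adjusted p = 0.928), old against young -0.28 (SE 0.771, adjusted p = 0.957) and HFHF-old against young -0.59 (SE 0.775, adjusted p = 0.712), all by edgeR with 2 rats a group. The endothelial level reached 83.25 CPM in HFHF-old replicate 1 and 2.821 CPM in replicate 2 of the same group, against 10.89 to 27.85 CPM in the 4 others, so the diet group spanned the whole range. The 8 macrophage markers moved with it, at a summed 3422 CPM in endothelial cells of HFHF-old replicate 1, 4.231 CPM (3 of 8 detected) in replicate 2 and 876.9 to 1545 CPM in the others, and their part in the Hmox1 values was not tested. Both were highest in endothelial cluster 21, with 184.7 CPM of Hmox1 and 6532 CPM of the markers in HFHF-old replicate 1. Over 62 class-by-rat sums with at least 50 cells, the genes most like Hmox1 among 6660 were F13a1 (Pearson r = 0.946 of log2 CPM), which encodes a coagulation factor subunit made by tissue macrophages, Cd14 (0.941), an endotoxin co-receptor of myeloid cells, and Cndp1 (0.940). These points share rats and libraries, so the coefficients are descriptions.

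Mt1, by contrast, was found in nearly every class. Smooth muscle cells were steadiest, at 152.4, 142.5, 172.1 and 173.6 CPM in young and old rats and 196.1 CPM in HFHF-old replicate 1. Fibroblasts held 109.3, 74.35, 117.3, 256.7, 80.31 and 116.4 CPM, and macrophages 71.64, 68, 81.63, 174.3, 176.0 and 39.05 CPM. Old replicate 2 was the highest rat in fibroblasts and in acinar cells and was next to the highest in macrophages. T cells were low, with 18.53 to 63.77 CPM. The gene's UMIs were shared out accordingly, with a mean per rat of 19.49% in fibroblasts, 19.42% in macrophages and 15.88% in NK cells.

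In acinar cells Mt1 split the rats sharply. It stood at 194.1 and 248.6 CPM in young rats and 284.9 CPM in old replicate 2, but at 15.48 CPM in old replicate 1, 5.979 CPM in HFHF-old replicate 1 and 0 in HFHF-old replicate 2, where 3 UMIs would have been 11.14 CPM. By the estimate, free RNA alone would give 12.62, 23.92 and 16.19 CPM in the last 3 rats, so acinar Mt1 was near that level in old replicate 1 and below it in both HFHF-old rats. For HFHF-old replicate 1 the estimate was thus too high. Acinar markers were abundant in all 6 rats, at 264200 to 537900 CPM summed. The low rats comprised both HFHF-old rats but also 1 of the 2 old rats, so the 2 old rats lay far apart, with both HFHF-old rats below them. The rats also filled different acinar sub-clusters, with 403 of 485 cells of HFHF-old replicate 1 in sub-cluster 12, 320 of 355 of young replicate 2 in sub-cluster 6, and 431 of 509 of old replicate 1 and 237 of 311 of young replicate 1 in sub-cluster 2. Sub-cluster 6 repeated the split, at 340.0 and 262.1 CPM in young, 12.27 and 270.8 CPM in old rats and 0 in HFHF-old replicate 2. In sub-cluster 2 young replicate 1 was low too, with 43.58 CPM against 267.8 CPM in young replicate 2, 220.7 CPM in old replicate 2 and 16.54 CPM in old replicate 1. Because the 20 most abundant genes took 76.47 to 82.36% of acinar UMIs, the mean over rats rose from 124.8 CPM to 583.1 CPM when only the other genes were counted, which would place acinar cells first among the classes for Mt1.

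The islet cells of the same rats shared the pattern only in part. In beta cells Mt1 was 78.67 and 17.75 CPM in young, 7.222 and 68.75 CPM in old rats and 131.8 CPM in HFHF-old replicate 1. That rat had the highest beta level in CPM and a low acinar level. The 20 most abundant genes took 65.86% of its beta UMIs and 81.49% in young replicate 1, so the order of these rats depends on the scale. Of the 169 beta cells of HFHF-old replicate 1, 160 were in sub-cluster 15, which held 12 to 21 cells in 3 of the other rats. There Mt1 was 135.0 CPM in this rat against 140.0 CPM in young replicate 1 and 13.51 and 133.8 CPM in old rats. PP cells followed the beta cells, with 66.47, 12.97, 9.191, 43.40 and 65.66 CPM. Old replicate 1 was low in acinar, beta and PP cells, whereas its smooth muscle (172.1 CPM) and fibroblast (117.3 CPM) levels lay within the range of the other rats. In T cells both old and both HFHF-old rats lay below both young rats.

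Mt2A was narrower. Fibroblasts held 111.4, 62.08, 112.7, 125.1, 66.75 and 112.4 CPM, and they contributed a mean of 52.93% (11.79 to 75.48% per rat) of its UMIs with 13.82% of the cells. Endothelial cells varied more, at 139.2, 41.53, 45.01, 52.99, 27.75 and 115.6 CPM, and mesothelial cells had 26.08 to 93.29 CPM in 4 rats. In young replicate 1, the highest endothelial rat, 40 of 579 endothelial cells lay in cluster 36, where fibroblast markers summed to 22558 CPM. Of the barcodes of cluster 36, 96.61% were marked as likely doublets, and their part in this value was not tested. NK, T and dendritic cells stayed at or below 6.629 CPM, whereas Mt1 was 46.51 to 109.8 CPM in NK and dendritic cells, where free RNA would give 8.839 to 32.51 CPM. In T cells of old and HFHF-old rats Mt1 less free RNA was 2.600 to 7.240 CPM. Within fibroblasts the tenth of the cells richest in Mt2A held 76.68 to 87.65% of its UMIs. A UMI was seen in 6.963% ± 1.618 (SD, n = 6) of fibroblasts after thinning, against 0.3929% of T cells, and in 21.41 and 1.649% without it. Acinar Mt2A repeated the acinar Mt1 split, with 31.31 and 61.42 CPM in young and 38.43 CPM in old replicate 2 against 5.284, 1.812 and 0 CPM in old replicate 1 and the HFHF-old rats. The 20 most abundant genes took 76.47 to 82.36% of acinar UMIs. With only the other genes counted acinar Mt2A would be higher, so the place of acinar cells for this gene depends on the scale.

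**Figure D3:**
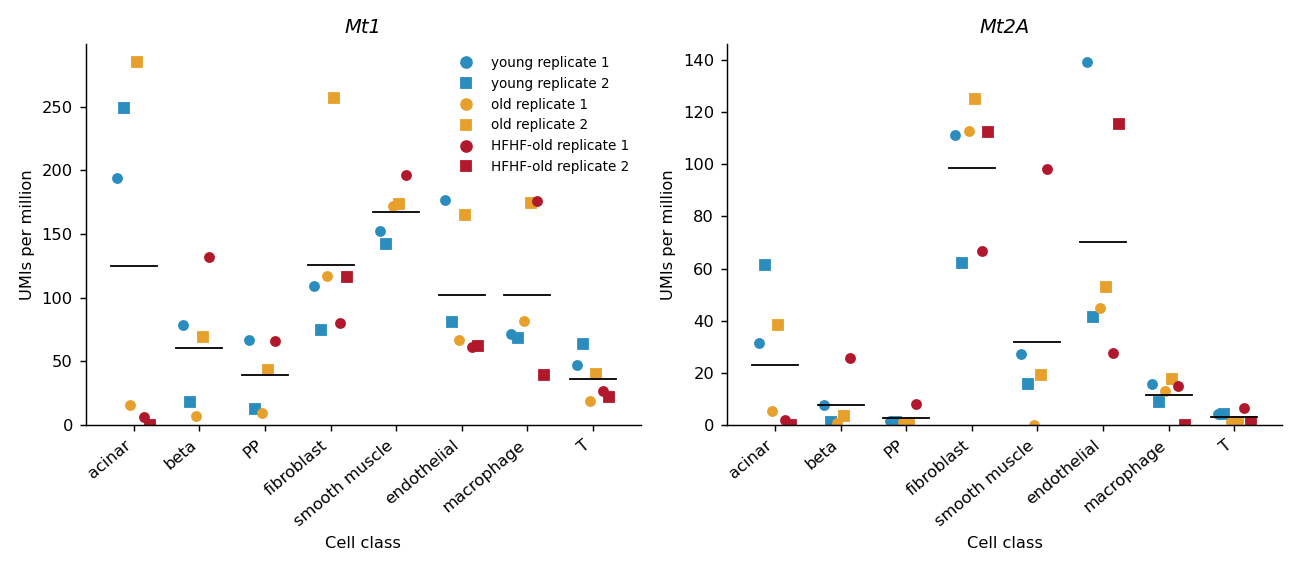
Mt1 (left) and Mt2A (right) in CPM for 8 cell classes. Points are rats, colour is group, shape is replicate and the bar is the mean. Acinar Mt1 is 194 to 285 in 3 rats and 0 to 15.5 in the other 3, and Mt2A is highest in fibroblasts and endothelial cells, and smooth muscle cells are at 0 to 27.3 in 4 rats and at 98.05 in HFHF-old replicate 1, from 10 UMIs.

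For acinar Mt1 the fitted log2 fold change was -5.24 (SE 1.34, adjusted p = 1.00) for HFHF-old against young and -4.92 (SE 1.33, adjusted p = 1.00) for HFHF-old against old, and for Mt2A -4.58 (SE 1.10, adjusted p = 1.00) and -3.66 (SE 1.09, adjusted p = 1.00), by edgeR with n = 2 against 2. None was called, and without the filter on low counts all 4 were (adjusted p = 4.34e-05, 0.000161, 0.000888 and 0.0363 by edgeR), where 0.125% of all tests against young and 0.0265% against old were called. The single member test that passed was Mt1 in mesothelial cells, the lining of the organ's surface, for old against young. Its level was 11.59 CPM in young replicate 1 (4 UMIs in 39 cells), 66.80 and 195.1 CPM in old and 118.6 CPM in HFHF-old replicate 1, with young replicate 2 left out for having 8 cells. The log2 fold change was 3.64 (SE 0.951, adjusted p = 0.0425 by edgeR, n = 2 against 1). The dissociation response genes stood at a summed 1811 CPM in mesothelial cells of young replicate 1, 4946 and 11890 CPM in old rats and 4665 CPM in HFHF-old replicate 1, and their part in the Mt1 values was not tested. In that comparison 0.108% of all gene-by-class tests and 0.316% of those in mesothelial cells were called. The call was lost with DESeq2, without TMM scaling, without the filter on low counts and with the older quasi-likelihood method. It was also lost with doublets left out, with classes by highest marker score and with the replicate number as a block. The young value was below the 26.97 CPM that the free RNA estimate would give.

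Over the same 62 sums the genes most like Mt2A were Plpp3 (r = 0.838), a lipid phosphatase, Serpinh1 (0.829), a collagen chaperone, and Ltbp4 (0.828), a matrix protein. For Mt1 the coefficients were lower, with Cnih1 at 0.639, Mt2A at 0.626 and the unnamed gene AABR07028887.1 at 0.622. Mt3, another metallothionein on the list of other metallothioneins and zinc regulators, had 7.939 and 7.055 CPM in beta cells of young rats (22 and 31 UMIs), 1.805 and 0.2925 CPM in old rats and no UMI in HFHF-old replicate 1. The young mean was at least 15.1-fold above the level of 3 UMIs in that rat. HFHF-old against young was called (adjusted p = 0.0145 by edgeR, n = 1 against 2), and old against young was not (log2 fold change -3.51, SE 0.633, adjusted p = 0.0542). Of the young Mt3 UMIs 21 and 29 came from beta sub-cluster 13, whereas HFHF-old replicate 1 had nearly all its beta cells in sub-cluster 15, where young replicate 1 had 1 UMI and old rats 0 in 12, 21 and 16 cells. For HFHF-old against young the Mt3 difference and the make-up of the class therefore cannot be told apart. Within sub-cluster 13 Mt3 was 8.468 and 7.261 CPM in young (46 and 42 cells) and 2.120 and 0.2418 CPM in old rats (46 and 272 cells). Of the 45 to 50 tests of this list per comparison that was the only call.

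Gclc was highest in macrophages (a mean of 65.77 CPM), mesothelial cells (64.68 CPM in 4 rats), fibroblasts (51.18 CPM) and endothelial cells (43.14 CPM), and in macrophages and fibroblasts it was lowest in both young rats. Fibroblasts held 25.01 and 17.25 CPM in young, 50.15 and 44.21 CPM in old and 75.91 and 94.59 CPM in HFHF-old rats, with no overlap between the 3 groups. The log2 fold change was 1.96 (SE 0.250, adjusted p = 0.0923) for HFHF-old against young, 1.16 (SE 0.246, adjusted p = 0.282) for old against young and 0.80 (SE 0.240, adjusted p = 0.531) for HFHF-old against old, by edgeR with n = 2 against 2. In the main analysis none passed with edgeR over all genes of the class. With DESeq2 on the same sums the first comparison (1.96, SE 0.308, adjusted p = 4.76e-07) and the second (1.14, SE 0.312, adjusted p = 0.0277) were called. The first was also called by edgeR with doublets left out (adjusted p = 0.0441) and without the filter on low counts (adjusted p = 0.0435 by edgeR). Without the filter 0.125% of all tests of that comparison were called, and the share with doublets left out was not computed.

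The fibroblast clusters were compared to see where the difference lay. Cluster 3 had 27.36 and 20.97 CPM in young, 46.92 and 49.53 CPM in old and 88.43 and 88.54 CPM in HFHF-old rats, and cluster 6 had 20.65, 19.34, 29.34, 29.01, 64.94 and 113.6 CPM, so each repeated the order of the whole class. Cluster 10 had 19.88, 10.41, 61.93, 59.46, 32.82 and 66.68 CPM, where HFHF-old replicate 1 fell below the old rats. In fibroblasts the dissociation response genes also differed by group. Their summed level was 8743 and 5328 CPM in young, 14850 and 14220 CPM in old and 14530 and 18360 CPM in HFHF-old rats. Their part in the Gclc values was not tested.

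Macrophages held Gclc at 38.76 and 29.26 CPM in young, 66.19 and 71.11 CPM in old and 87.78 and 101.5 CPM in HFHF-old rats. The order of the groups was that of the fibroblasts (HFHF-old against young 1.35, SE 0.235, adjusted p = 0.170; old against young 1.08, SE 0.230, adjusted p = 0.357, edgeR). DESeq2 called HFHF-old against young (1.33, SE 0.3496, adjusted p = 0.01035). The mix of macrophage clusters differed, with clusters 1 and 2 holding 5152 of 6223 macrophages in young replicate 1 but 862 of 4075 in HFHF-old replicate 1, and cluster 8 holding 41 of 50 in HFHF-old replicate 2. Within cluster 8 Gclc was 56.79, 45.04, 65.34, 71.01, 114.4 and 109.0 CPM and kept the order of the groups. There the macrophage markers stood at 5425 CPM in HFHF-old replicate 2 against 8132 to 11911 CPM in the others, and their part was not tested. In clusters 1, 2 and 9 the young rats were again lowest, but HFHF-old replicate 1 lay above both old rats only in cluster 2 (80.93 against 51.22 and 70.26 CPM), with 59.56 against 52.36 and 70.70 CPM in cluster 1 and 77.76 against 81.74 and 75.34 CPM in cluster 9. The dissociation genes stood at 6210 and 3356 CPM in young, 6173 and 6561 CPM in old and 10100 and 7552 CPM in HFHF-old macrophages, and their part was again not tested. In NK and T cells Gclc was 4.161 to 17.68 CPM, highest in the HFHF-old rats, but free RNA would give 1.026 to 13.42 CPM of it. Dendritic cells did not order by group, with 38.76, 22.54, 19.27, 19.84, 37.14 and 17.80 CPM.

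**Figure D4:**
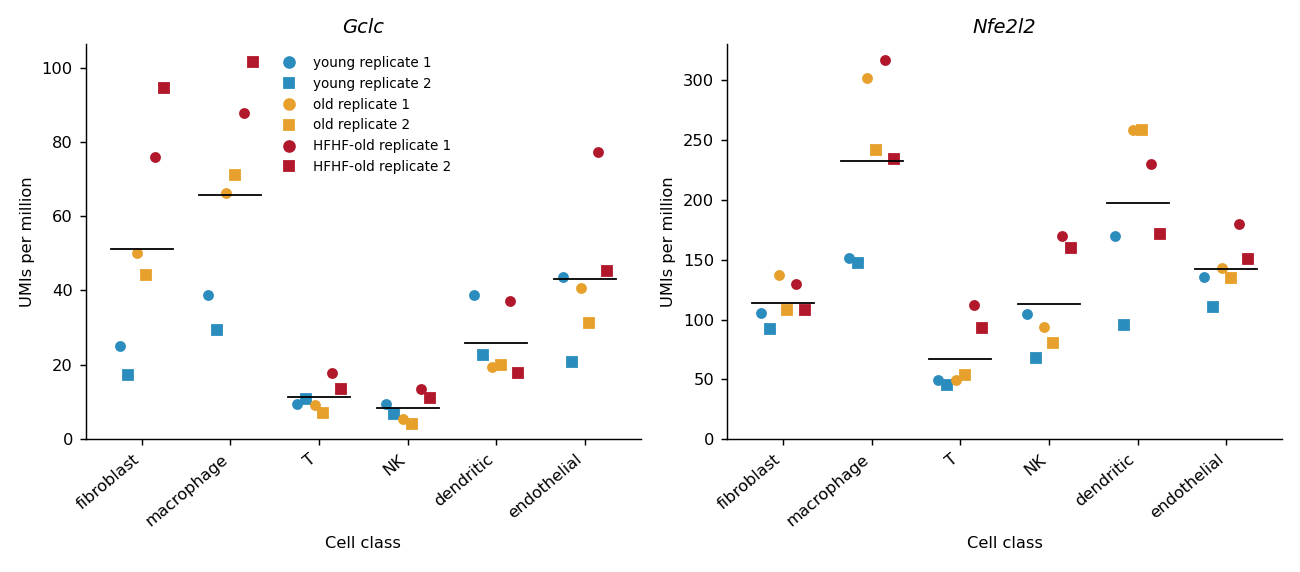
Gclc (left) and Nfe2l2 (right) in CPM in 6 cell classes. Points are rats, colour is group, shape is replicate and the bar is the mean. In fibroblasts and macrophages Gclc is lowest in the 2 young and highest in the 2 HFHF-old rats, and Nfe2l2 in T and NK cells is highest in the 2 HFHF-old rats.

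The next counts use levels scaled by the TMM factors of the tests, which correct for differences in composition, over classes with 2 rats in each group. Both HFHF-old rats lay above both old rats for Gclc in 5 of 6 classes and below in 0, where the share over all genes and classes was 18.6% above and 20.9% below. The 5 included T and NK cells, with low levels to which free RNA could contribute. Endothelial cells were also among them, and their macrophage markers were highest in HFHF-old replicate 1. HFHF-old against young also gave 5 of 6 above and 0 below (21.3 and 23.4% over all genes), and old against young 4 of 11 above and 3 below (17.3 and 17.4%). On this scale Nfe2l2 was above in both old rats in 9 of 13 classes against young and below in 0. Against old it was above in the HFHF-old rats in 3 of 7 classes and below in 1. Nqo1 was above in both old rats in 1 of 9 classes against young and below in 5, and Gclm was above in 0 of 13 and below in 4. The 5 for Nqo1 were NK, T, dendritic, beta and ductal cells, all with low levels. In NK, T, dendritic and beta cells Nqo1 was at or below 12.78 CPM in every rat. The ductal value of young replicate 2, 12.44 CPM, was 3 UMIs. Free RNA was not subtracted in these counts. Against old, Nqo1 was above in the HFHF-old rats in 3 of 6 classes and below in 0. Mt1 went the other way, with the pair of HFHF-old rats lower than the pair of old rats in 3 of 7 classes and above in 0, and Hmox1 had 0 of 7 classes in either direction. On the CPM scale of the printed levels, a comparison added after seeing the data, the counts for old against young moved to 6 of 13 above and 2 below (alpha and delta cells) for Nfe2l2 and to 3 of 11 above and 4 below for Gclc, where 14.2% of all genes lay above and 22.5% below. Those for Gclc, Mt1, Hmox1 and Nfe2l2 in HFHF-old against old and for Gclc in HFHF-old against young were the same on both scales, beside 23.7 and 16.4% and 21.7 and 23.4% of all genes. Classes of a rat share its library and the comparisons share rats, so these counts are not independent of one another.

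Gclm, the modifier subunit, had a different distribution from Gclc. Its mean was highest in delta cells (48.28 CPM) and ductal cells (47.05 CPM), and NK cells (30.26 CPM) stood above fibroblasts (26.07 CPM) and macrophages (13.12 CPM). Outside the 20 most abundant genes beta cells, at 24.93 CPM of all UMIs, came first with 111.7 CPM, where delta cells had 80.46 CPM and ductal cells, no longer next to delta cells in level, 55.64 CPM. Macrophages were a high class for Gclc and a low one for Gclm on either scale. The ductal levels were 47.11, 37.31, 48.10, 29.61 and 73.14 CPM, the delta levels 40.37, 56.92, 79.89 and 15.94 CPM in young and old rats from sums of few cells. No Gclm test was called, and in NK cells HFHF-old against old gave -0.13 (SE 0.339, adjusted p = 0.892, edgeR).

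Slc7a11 was low in the named classes, and highest among them in PP and dendritic cells. PP cells reached 38.7 CPM in young replicate 1 and 6.489 to 21.01 CPM in the other rats with a value, dendritic cells had 27.19, 7.514, 5.475, 14.71, 10.88 and 17.80 CPM, and all others stayed at or below 9.623 CPM. Of its 3330 UMIs, 1556 or 46.73% came from 205 cells, which are 0.2726% of all cells. These cells formed sub-cluster 2 of cluster 15, a cluster of 2065 cells that the marker rule called B-like and that was left unnamed because only 23.1% of its cells lay in sub-clusters with B markers at 500 CPM or more.

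In that sub-cluster Slc7a11 was 939.5 CPM in young replicate 1, 660.2 and 505.9 CPM in old and 886.1 and 589.7 CPM in HFHF-old rats. Young replicate 2 had only 5 of its cells and no value. A Slc7a11 UMI was seen in 164 of the 205 cells (80%) at a median of 8772 UMIs per cell, against 0 to 0.7634% of NK cells per rat at medians of 3575 to 8823. Of PP cells 8.982 to 37.5% per rat had one, at medians of 11520 to 23590 UMIs, and after thinning to 1000 UMIs 1.536% ± 1.77 (SD, n = 5). The leading genes of these cells were Lad1, Slc22a23, Il12b, Flvcr2, Vsx1, Defb52, Cacnb3, Marcksl1, Ptn and Fscn1, with Il12b, a subunit of interleukin-12, at 315.3 CPM, Fscn1, an actin bundler, at 111.3 CPM and Ccr7, the receptor that guides cells to lymph nodes, at 88.27 CPM. Cd79b, a part of the B cell receptor, stood at 0.4904 CPM. Of these cells 14.63% were marked as likely doublets.

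The same cells carried more Gclc and Nfe2l2 than any named class did on summing over rats. Gclc was 103.5 CPM in young replicate 1 (75 UMIs), 97.60 and 167.2 CPM in old (34 and 77 UMIs) and 476.7 and 352.2 CPM in HFHF-old rats (99 and 86 UMIs). Both HFHF-old rats were the highest, from 17 and 21 cells. Nfe2l2 was 438.7, 591.3, 479.8, 558.6 and 294.9 CPM in the same order and did not separate the groups. Because the sub-cluster was picked for its level after the values were seen, no test was made.

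Cluster 34 also held Slc7a11. It had 235 cells with a median of 1505 UMIs, all 10 acinar markers among its high genes and Rbpjl, a factor of acinar cells, as the leading gene, and was left unnamed for its few UMIs. Slc7a11 was 292.8, 237.2, 867.3, 135.2 and 153.7 CPM in the rats other than HFHF-old replicate 2, from 17, 23, 170, 9 and 55 UMIs, while the acinar class stayed at or below 6.262 CPM. Together with cluster 15, which held 48.41% of the UMIs of the gene, cluster 34 with 8.228% accounts for most of the Slc7a11 transcripts found. Its genes of closest pattern over named classes, Tmem50b (r = 0.683), Hepacam2 (0.676) and Tbc1d9 (0.659), were found over these low levels.

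**Figure D5:**
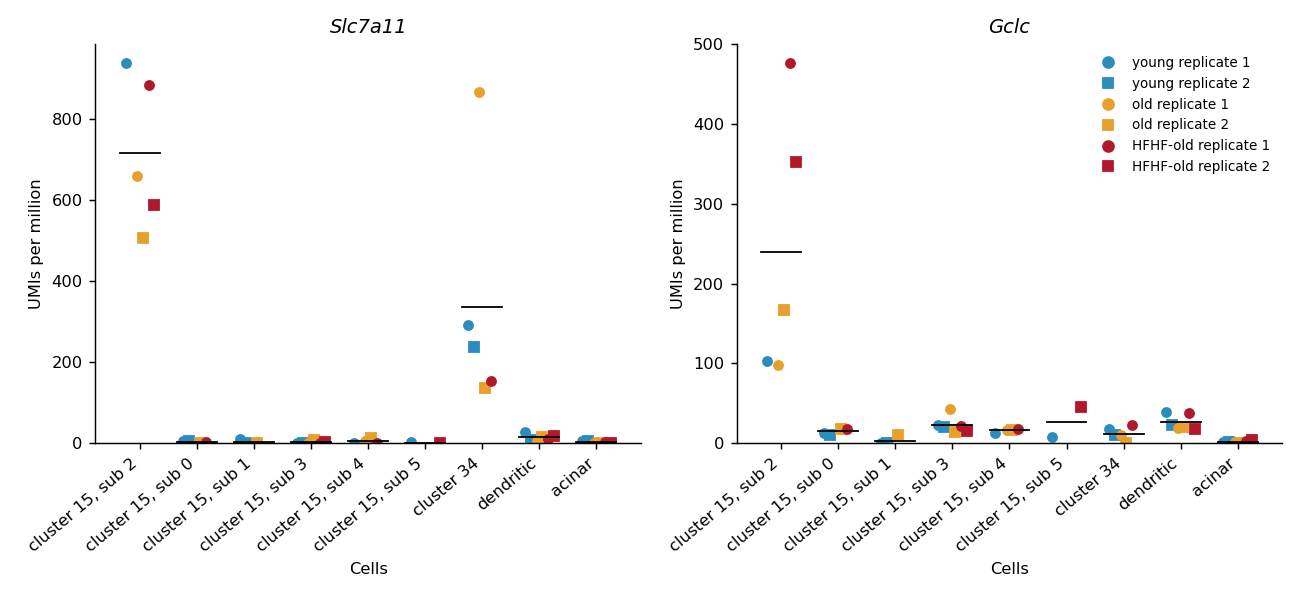
Slc7a11 (left) and Gclc (right) in CPM in sub-clusters of cluster 15, in cluster 34 and in the dendritic and acinar classes. Points are rats, colour is group, shape is replicate and the bar is the mean. Sub-cluster 2 holds Slc7a11 at 506 to 940 and cluster 34 at 135 to 867, the other sub-clusters shown lie near 0, and Gclc in sub-cluster 2 is highest in the 2 HFHF-old rats.

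Nqo1 was low but widely present. Endothelial cells held 25.09, 13.22, 11.25, 15.97, 29.21 and 25.38 CPM and fibroblasts 14.64, 12.26, 15.82, 16.93, 22.64 and 19.18 CPM, in the latter with both HFHF-old rats above the other 4, although with TMM scaling they overlapped the old rats. Acinar cells averaged 0.4204 CPM and beta cells 1.995 CPM. The genes most like it over the 62 sums were Ptprm (r = 0.848), a receptor phosphatase, Ifit2 (0.845), an interferon-induced gene, and Tnfrsf1a (0.840), a receptor for tumour necrosis factor.

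In ductal cells 1 rat differed. Nqo1 was 10.60, 12.44, 10.23 and 7.403 CPM in the young and old rats and 126.7 CPM (71 UMIs in 37 cells) in HFHF-old replicate 1, the only HFHF-old rat with a value. HFHF-old against old gave a log2 fold change of 4.06 (SE 0.389, adjusted p = 0.211) and against young 3.69 (SE 0.405, adjusted p = 0.347), by edgeR with n = 1 against 2, and neither was called. Gclc was also highest there, at 101.7 CPM against 16.58 to 49.12 CPM in the 4 others (1.70, SE 0.454, adjusted p = 0.320 against old, edgeR), and Gclm at 73.14 CPM. Hmox1 (16.06 CPM) was within the range of the other rats and below the 26.46 CPM that free RNA would give, and Nfe2l2 was the lowest of the 5 rats.

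The wider list of Nrf2 targets was read in the same ductal cells. Of 23 of its genes tested for HFHF-old against old, 17 had a positive log2 fold change, 9 an unadjusted p under 0.05 and 0 were called, and their median was 0.75. Over all genes tested in the class 46.5% were positive, 13.8% had an unadjusted p under 0.05 and the median was -0.07. Ugdh, which makes UDP-glucuronic acid, was 129.6, 91.20, 47.07, 58.09 and 347.9 CPM (2.93, SE 0.403, adjusted p = 0.279, edgeR). Txnrd1, thioredoxin reductase, was 97.76, 53.89, 79.82, 93.96 and 588.7 CPM (2.96, SE 0.461, adjusted p = 0.280, edgeR), and Akr1b8, an aldo-keto reductase, was 104.8, 8.291, 2.047, 40.43 and 1272 CPM (6.01, SE 1.69, adjusted p = 0.321, edgeR). HFHF-old replicate 1 was the highest rat for all 3, and the last 2 were singled out after their values were seen. Other listed genes did not follow. Gsta1, which is counted among those 9, was lowest in this rat (294.3 CPM against 356.5 to 852.5 CPM, log2 fold change -1.09 against old).

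These transcripts were spread unevenly over the cells. Of the 37 ductal cells of HFHF-old replicate 1, 28 had a Txnrd1 UMI, 23 Ugdh, 22 Me1, 21 Gclc, 16 Akr1b8 and 14 Nqo1. Of the 14 with Nqo1 14 had Txnrd1, 14 Ugdh, 13 Akr1b8 and 11 Gclc. The 4 highest cells for each gene held 64.79% of Nqo1, 70.91% of Txnrd1, 66.2% of Akr1b8 and 42.11% of Gclc UMIs. Of the 37 cells, 3 were marked as likely doublets, and whether these were among the 4 highest was not examined. The number of UMIs per cell was not taken into account in these counts. All 8 ductal markers were detected in the class in this rat. The dissociation genes, at 10100 CPM summed, lay within the 6061 to 10820 CPM of the other rats. The haem and iron handling genes stood apart, at 28750 CPM against 3290 to 10540 CPM, as did the 10 acinar markers, at 8338 CPM against 2196 to 5128 CPM, and the 20 most abundant genes took 19.65% of the UMIs against 11.34 to 14.82%. Their part in the Nqo1 and Gclc values was not tested.

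Over all classes, 95, 106 and 95 tests of the 9 genes were made for the diet at 20 months (HFHF-old against old), for age (old against young) and for both together. They gave 0, 1 and 0 calls, a call needing a change of more than 1.5-fold besides an adjusted p below 0.05, where 0.0639, 0.108 and 0.117% of all gene-by-class tests were called. At an unadjusted p under 0.05 there were 16, 13 and 13, where the share over all tests was 8.636, 5.634 and 10.65%. DESeq2 called 0, 1 and 4 member tests, and 0.437, 0.645 and 1.54% of all tests with an adjusted p. The median log2 fold change of the members was 0.19, -0.02 and 0.25, against -0.02, 0.01 and -0.02 over all tests. The direction differed between members, from 10 of 11 classes positive for Gclc to 3 of 11 for Keap1 in HFHF-old against old, with 4 of 12 for Mt1.

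The neighbouring gene lists gave few calls as well. For the wider Nrf2 targets 0 of 226 tests were called in either direction for HFHF-old against old (median -0.06), 0 of 258 for old against young (0.14) and 0 of 226 for HFHF-old against young (0.02). The Nrf2 partners and repressors gave 0 of 97, 109 and 97 (medians 0.15, 0.04 and 0.13), haem and iron handling 0 of 96, 107 and 96 (0.11, -0.08 and 0.07), the amino acid response of Atf4 0 of 101, 113 and 101 (0.03, 0.19 and 0.13), glucocorticoid response genes 0 of 106, 119 and 106 (0.02, -0.22 and -0.20) and haemoglobin 0 of 27 in each (-1.60, 1.93 and -0.40). The dissociation response had medians of 0.35, 0.78 and 1.21, with 77 of 120, 123 of 136 and 115 of 120 tests positive and 1 call. That call was Nr4a1, an immediate early gene, in mesothelial cells for old against young (log2 fold change 5.17, n = 2 against 1). Its level was 8.694 CPM in young replicate 1, from 3 UMIs, 285.4 and 305.3 CPM in old rats and 51.39 CPM in HFHF-old replicate 1.

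Among the list genes with the smallest p-values that were not called, Akr1b8 in macrophages was 4.654 and 4.741 CPM in young, 36.60 and 19.50 CPM in old and 57.38 and 62.48 CPM in HFHF-old rats (HFHF-old against young 3.55, SE 0.336, adjusted p = 0.0876, edgeR). Its groups did not overlap, but the gene was named for its small p-value in HFHF-old against young. The separation of those 2 groups therefore follows from the choice. The value of HFHF-old replicate 2 came from 24 UMIs in 50 macrophages. The mix of macrophage clusters differed between rats, and its part in the Akr1b8 values was not tested. Nr4a1 in fibroblasts was 208.8 and 199.3 CPM in young, 736.1 and 757.4 CPM in old and 446.3 and 502.3 CPM in HFHF-old rats (old against young 1.90, SE 0.257, adjusted p = 0.0894, edgeR). Bach2, a repressor at Nrf2 sites, was 61.70 CPM in PP cells of HFHF-old replicate 1 against 8.284 to 31.51 CPM in the others (2.38, SE 0.469, adjusted p = 0.0673 against young, edgeR). Dnajb1, a chaperone, was 43.26 CPM in beta cells of that rat against 1.366 to 5.052 CPM (2.43, SE 0.497, adjusted p = 0.168 against old, edgeR). Hba-a2, a haemoglobin chain listed under 2 identifiers, reached 153.9 and 84.86 CPM in beta cells of old replicate 1 and at most 5.193 CPM in the other rats, and the smaller adjusted p for HFHF-old against old was 0.221 (-7.33, SE 1.61, edgeR).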

How the data were processed

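Cells of 6 rat pancreases, 1 library per rat, were measured with 10x Genomics 3' single-cell sequencing. The deposited values are whole-number counts of UMIs per gene and barcode, which the authors made with Cell Ranger and kept as filtered matrices without normalization. The submitters' processing notes name the genome build Rnor 6.0. The labels of the rats gave the 3 groups.

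Barcodes with fewer than 200 genes, over 25% mitochondrial UMIs or a gene number in the top 1% were left out. The other cells were scaled to 10000 UMIs, reduced to 10 principal components of 2000 variable genes with all listed genes held out, and clustered with leidenalg 0.10.2 at resolution 1. Acinar and endocrine cells were clustered again with 20 components. A cluster took the name of the class with the highest mean log2 fold of its markers if at least 3 and 50% of them reached 1, unless over 99% of its cells came from 1 library, its cells had few UMIs, or another class led its 10 leading genes. Checks for macrophage markers (over 25% of the macrophage level) and B markers were added after values were seen and left clusters 15, 24 and 26 unnamed. Doublets were marked (0.8% per 1000 barcodes) but kept. Free RNA was estimated from acinar enzymes in T and NK cells and the library profile.

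Counts were summed per rat and class with at least 10 cells and tested with edgeR 4.0.16 (TMM, filterByExpr, glmQLFit, glmQLFTest, 1 fit of all rats per class), adjusted by Benjamini-Hochberg over all genes of the class. The p-values measure the spread between 2 rats a group. Levels of all classes were compared without a test. Alternatives were DESeq2 1.42.0, other scaling, filters, clustering, doublets, thinning and leaving out each rat. The tests were checked on simulated data. Named were all 9 genes, of the wider lists up to 6 calls or else the 3 smallest p-values per comparison, and for 5 members the 3 genes of highest Pearson r of log2(CPM + 1), among genes with a mean of at least 20 CPM. The members and lists were chosen with earlier results of these data known. Of the listed symbols Srxn1, Pgd, Hspa1b, Hba-a1 and Hbb-bs were not analysed here.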

Additional observations from a re-analysis of the deposited data

Results flagged for a closer look

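Several values stood outside the named classes, above the highest level of any named class in any rat. In sub-cluster 2 of cluster 15, summed over 200 cells of 5 rats, Slc7a11 reached 741.3 CPM from 1472 UMIs against at most 38.7 CPM in named classes, Gclc 186.8 CPM from 371 UMIs against 101.7 CPM, and Nfe2l2 469.9 CPM from 933 UMIs against 377.6 CPM. Over all 2065 cells of cluster 15 Slc7a11 was 79.8 CPM from 1612 UMIs, and over the 235 cells of cluster 34 it was 353.4 CPM from 274 UMIs. Sub-cluster 11 of cluster 15 held Mt1 at 355.2 CPM from 306 UMIs in 44 cells of 3 rats, against at most 284.9 CPM in named classes, and 64.81% of the barcodes of that sub-cluster were marked as likely doublets.

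Clusters 20 and 28 came from old replicate 2 alone, with 1116 and 715 cells and medians of 665.5 and 785 UMIs. Mt1 stood there at 1255 CPM (1065 UMIs) and 632.1 CPM (437 UMIs), and Mt2A at 706.1 CPM (599 UMIs) and 501.9 CPM (347 UMIs), against at most 139.2 CPM of Mt2A in named classes. The leading genes were Actg2, Cnn1 and Igf2 in cluster 20 and Prap1, Ctsj and Sct in cluster 28. No other rat has these clusters, so the rat and the cells cannot be told apart.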

How the results depend on the processing

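For HFHF-old against old 0 member tests were called, 2 without the filter on low counts (acinar Mt1 and Mt2A) and 0 to 4 when 1 rat was left out. Without old replicate 2 these were Mt1 in beta and PP cells and Mt2A in beta and smooth muscle cells, all 1 rat against 1. Without old replicate 1 it was smooth muscle Mt2A, also 1 rat against 1. Without young replicate 1 it was ductal Nqo1 (log2 fold change 4.11, n = 1 against 2). The share of all tests called was not computed with a rat left out, without TMM, at resolution 2 or with doublets left out. For old against young the 1 call became 0 without TMM scaling, without the filter on low counts, with at least 50 cells, with doublets left out, with classes by highest marker score and with the older quasi-likelihood method. It was 0 to 3 with 1 rat left out, the 3 again without old replicate 2, and 0 without young replicate 1, old replicate 1 or HFHF-old replicate 1. For HFHF-old against young 0 became 4 with DESeq2 (Gclc in fibroblasts and macrophages, Nfe2l2 in NK and T cells), 3 without TMM (Hmox1, Mt2A and Slc7a11 in beta cells), 3 without the filter, 1 with doublets left out (fibroblast Gclc), 1 at clustering resolution 2 and 0 to 3 with 1 rat left out. The 3 came without HFHF-old replicate 1 and included macrophage Hmox1 (log2 fold change -2.92, adjusted p = 0.0216 by edgeR), which then rested on the 50 macrophages of the other HFHF-old rat. A lone rat in a group was assumed to vary like the other groups.

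With the replicate number as a block 0, 0 and 0 member tests were called in the 3 comparisons. Deviations of rats with the same number correlated at -0.2042 to 0.2665 over 5 classes, so the numbers were not taken to pair the rats.

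Naming the clusters by the fixed rule alone, chosen after seeing the data, gave the counts of the main analysis. Log2 fold changes were recomputed under the alternatives for a chosen set of gene-and-class results. Of these 152 kept direction and side of the threshold, 11 passed it newly, 12 no longer passed and 0 turned. Leaving out a rat with too few cells of a class repeats the same fit, so part of them could not change. Of the counts of classes whose rats did not overlap 44 stayed within 1.5 times and 10 moved further on CPM without TMM, also chosen after seeing the data. Low levels in small classes rest on few UMIs, and the tests were not corrected for free RNA.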
